A study of Mus musculus with 6 samples.

Results

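The p53 family and its DNA damage checkpoint were followed through 10 genes, chosen by symbol from the 25631 genes of the expression table, and all 10 were found. They are the 3 p53 family members Trp53, Trp63 and Trp73, the p53 inhibitors Mdm2 and Mdm4, the checkpoint kinases Chek1 and Chek2, and the stress-response genes Cdkn1a, Gadd45a and Gadd45g. Total RNA of oocytes was sequenced as 6 libraries, and the donors were 14-month-old female ICR mice, a model of natural ovarian ageing. The aminophylline group (3 libraries) drank water with 4.0 mM aminophylline, a theophylline salt that inhibits phosphodiesterases, for 1 week and plain water for 3 weeks, and the control group (3 libraries) drank water without the drug. All mice of both groups were injected with equine chorionic gonadotropin (eCG), and the oocytes were released by puncturing large antral follicles. How many mice or oocytes went into a library is not given in the sources used here. Since nothing says that the libraries of a group came from separate mice, the p-values measure the spread between libraries, which may be technical.

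The p53 protein is a transcription factor that halts the cell cycle or starts apoptosis after DNA damage, and Mdm2 and Mdm4 hold it in check. In oocytes of resting follicles the family member p63, in its full-length TA form, is the known guardian of genome quality, and Chek2 is the kinase that activates it, whereas Chek1 is known for restraining entry into the meiotic division. In a fully grown oocyte transcription has largely stopped, and stored transcripts make up most of its RNA.

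Values are FPKM, fragment counts scaled to transcript length and library size, and reads are the whole fragment counts recovered from them. The libraries held 33641283, 14112341 and 31802417 reads in controls 1 to 3 and 28233049, 24773273 and 30589657 in aminophylline libraries 1 to 3. Control 2 was thus the shallowest, with 0.419 of the reads of the deepest library. All 14 oocyte markers stood at 1 FPKM or more in all 6 libraries, with sums of 20859 to 28691 FPKM in the controls and 22266 to 25976 in the aminophylline group. Granulosa and cumulus markers summed to 16.4 to 24.7 and 17.8 to 23.7 FPKM, and 11 of the 14 stayed under 1 FPKM in every library, Amh and Ptx3 being at or near 0. Most of these sums came from Cyp19a1, at 7.37 to 15.7 FPKM, and Nr5a2, at 4.43 to 8.53 FPKM, and Inha reached 1.66 FPKM. Theca and stroma markers summed to 2.77 to 3.83 FPKM in the controls and 3.90 to 5.30 in the aminophylline group, without overlap, and 8 of the 10 stayed under 1 FPKM. Control 1 stood apart in macrophage markers, whose sum was 266 FPKM there against 82.8 to 102 in the other 5 libraries, and 11 of the 13 listed markers were highest in it. Lyz2 reached 66.4 FPKM in control 1 and at most 0.573 elsewhere, and Adgre1 and C1qc were at 0 outside it. Of the other libraries' sum nearly all came from C1qb, at 72.3 to 99.8 FPKM in all 6. The part of these markers in the results was not tested, and the genes called in the comparison are also given without control 1. In bulk RNA, fewer cells of a type and less RNA per cell cannot be told apart.

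Promoters of 4 members are shown because they belong to the 2 members with the highest levels, Mdm4 and Chek1, and to a pair of classic p53 target genes among the members, Mdm2 and Cdkn1a. Each is the 250 bases before a RefSeq transcription start in GRCm38.p6, written 5′ to 3′ on the gene's strand, and capitals mark motif matches. For Mdm4, with 2 starts listed, the window is chr1:133025417-133025666 on the minus strand, before the inner start. For Chek1 it is chr9:36726659-36726908 on the minus strand, for Mdm2 chr10:117710759-117711008 on the minus strand and for Cdkn1a chr17:29090729-29090978 on the plus strand, before the outer of 2 starts.
Mdm4: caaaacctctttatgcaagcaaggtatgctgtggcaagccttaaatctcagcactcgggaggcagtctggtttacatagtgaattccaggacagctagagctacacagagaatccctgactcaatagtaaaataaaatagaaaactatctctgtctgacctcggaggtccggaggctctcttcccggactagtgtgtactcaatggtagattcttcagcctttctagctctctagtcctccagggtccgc
Chek1: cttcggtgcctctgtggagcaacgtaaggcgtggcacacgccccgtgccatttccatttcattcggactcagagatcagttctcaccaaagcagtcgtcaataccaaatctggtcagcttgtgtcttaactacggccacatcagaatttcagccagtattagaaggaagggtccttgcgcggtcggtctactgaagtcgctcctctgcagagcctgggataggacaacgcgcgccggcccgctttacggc
Mdm2: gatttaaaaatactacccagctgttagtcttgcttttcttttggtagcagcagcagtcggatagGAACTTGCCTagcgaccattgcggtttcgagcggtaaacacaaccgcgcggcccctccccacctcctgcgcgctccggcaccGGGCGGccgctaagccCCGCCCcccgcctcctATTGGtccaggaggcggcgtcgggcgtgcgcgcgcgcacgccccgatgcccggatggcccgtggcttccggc
Cdkn1a: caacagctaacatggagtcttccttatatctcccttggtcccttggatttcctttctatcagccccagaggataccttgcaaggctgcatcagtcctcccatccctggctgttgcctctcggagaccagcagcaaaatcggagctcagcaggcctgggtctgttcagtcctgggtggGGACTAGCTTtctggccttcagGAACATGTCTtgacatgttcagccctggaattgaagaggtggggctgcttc
The p53 decamer was searched on both strands as RRRCWWGYYY (R for A or G, W for A or T, Y for C or T). Both strands were searched for the CCAAT box by those 5 letters, the GC box as GGGCGG and the TATA box as the letters TATAAA. The E-box was searched as CACGTG, the cell cycle homology region as the letters TTTGAA and a homeodomain core as the letters TAATTA. Matches of different motifs did not overlap in these 9 windows. The Mdm2 window held 1 p53 decamer, 186 to 177 bases before the start, with 2 GC boxes and 1 CCAAT box, and the Cdkn1a window held 2 p53 decamers, 73 to 64 and 51 to 42 bases before the start. None of the 7 motifs was matched in the Mdm4 and Chek1 windows, whose GC contents were 47.2% and 55.2%. Of the 32851 promoter windows of the same length, 7.13% held a p53 decamer, 33.8% a CCAAT box and 32.7% a GC box, and the median GC content was 52.4%. Promoter windows were found for 9 of the 10 members, and the Trp53 and Gadd45a windows held 1 p53 decamer each. A match is a description of letters and not evidence of binding. The p53 decamer was matched as single copies, and bases outside these windows were not searched for p53 sites.

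The 10 genes spanned more than 3 orders of magnitude in the oocytes. Mdm4 had the highest mean over the 6 libraries, 336 FPKM, and ranked 309 among all genes of the table. It was followed by Chek1 at 92.7, Trp53 at 13.7, Mdm2 at 9.23, Trp63 at 2.27, Gadd45a at 2.10, Trp73 at 2.07, Chek2 at 0.793, Cdkn1a at 0.299 and Gadd45g at 0.0908 FPKM. The steps from Mdm4 to Chek1 (3.62-fold), from Chek1 to Trp53 (6.75-fold), from Mdm2 to Trp63 (4.06-fold) and from Trp73 to Chek2 (2.62-fold) left no overlap between the ranges of neighbouring genes. Trp53 was above Mdm2 in 6 of 6 libraries, although their ranges over the libraries overlapped. Trp63, Gadd45a and Trp73 did not differ beyond their spread, each being above the next in 3 of 6 libraries. The transcripts of 1 inhibitor and 1 kinase, Mdm4 and Chek1, thus far exceeded those of the p53 family itself, and Cdkn1a and Gadd45g were at the bottom of the order. FPKM is a level per transcript length, so these are comparisons between genes of transcript abundance, not of protein.

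**Figure D1:**
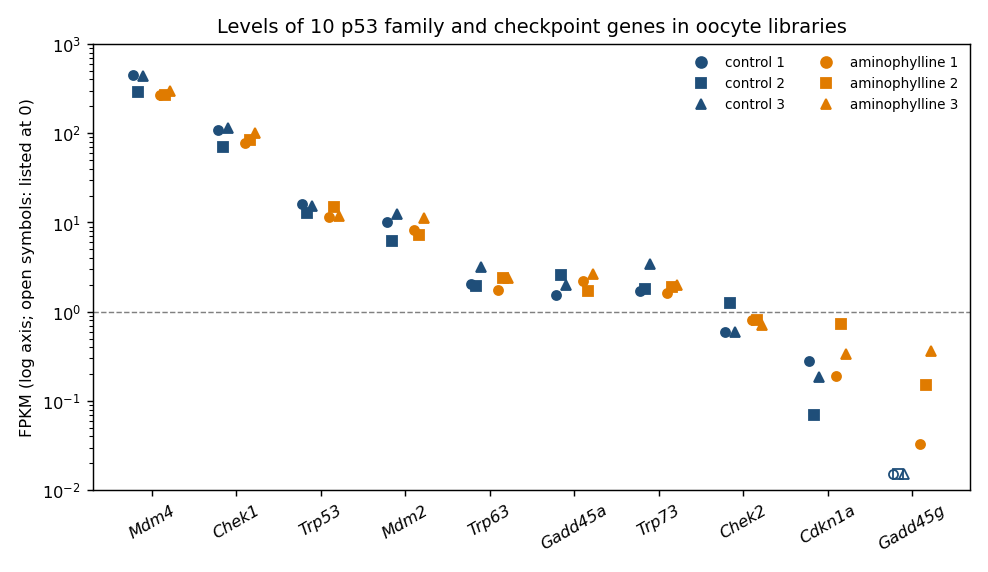
Levels of the 10 genes in FPKM (log axis), ordered by the mean over 6 libraries, with controls in blue and aminophylline libraries in orange and the symbol giving the library number. The dashed line marks 1 FPKM and open symbols mark a listed value of 0, which occurs only for Gadd45g in the 3 controls.

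The main comparison asked whether aminophylline was associated with a change in these transcripts. Genes with at least 1 FPKM in at least 3 of the 6 libraries were tested with limma on log2(FPKM + 1), a scale that understates the change of low genes, and 10340 genes passed. Of the 10 members 7 passed the filter, each of them at 1 FPKM or more in all 6 libraries, and Chek2, Cdkn1a and Gadd45g did not. At an unadjusted p under 0.05, 1 of the 7 was lower with aminophylline (Mdm4) and none was higher, where 2.84% of all tested genes were lower and 4.41% higher (7.25% in either direction). After Benjamini-Hochberg adjustment over the 10340 genes, no member and no gene of the table passed, while 750 genes passed the unadjusted threshold. The smallest adjusted p among the members, 0.682, was that of Mdm4. The split by direction depended on the scaling, with 456 higher and 294 lower as deposited, 281 and 292 after scaling to a common FPKM sum, 358 and 516 after quantile normalization, and 281 and 502 after median centring. The median log2 fold change was -0.13 over the 7 tested members and 0.10 over all tested genes, and each of the 7 lay below the median of all tested genes. For Gadd45a the distance from that median was only -0.014. It was 0.066 with no filter, 0.059 in a voom fit of the recovered reads and 0.073 in that fit with the replicate number as a block. Of the 7, 6 had a lower mean with aminophylline and Gadd45a a higher one, although Gadd45a was also lower after quantile normalization or median centring. Of all tested genes 35.2% had a negative log2 fold change.

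Among the family members themselves, Trp53, which encodes p53, was present at moderate levels. It stood at 16.1, 12.8 and 15.3 FPKM in the controls and at 11.6, 14.8 and 11.9 FPKM with aminophylline. The group means were 14.7 ± 1.71 and 12.8 ± 1.75 FPKM (SD, n = 3 each). Aminophylline libraries 1 and 3 were the lowest of the 6 and aminophylline 2 lay within the control range, so the groups overlapped. The log2 fold change was -0.19 (SE 0.195, 95% interval -0.62 to 0.24), with an adjusted p of 0.791 by limma. Trp53 lies at chr11:69580348-69591873 on the plus strand in GRCm38.p6.

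Trp63, the guardian of resting oocytes in its TA form, and Trp73, known for its part in spindle assembly and oocyte quality, were both low. Trp63 was at 2.02, 1.92 and 3.13 FPKM in the controls and 1.77, 2.37 and 2.42 FPKM with aminophylline. Trp73 was at 1.72, 1.80 and 3.40 FPKM in the controls and 1.61, 1.91 and 2.02 FPKM with aminophylline. In both genes control 3 was the highest library, aminophylline 1 the lowest, and the groups overlapped. The log2 fold change was -0.06 for Trp63 (SE 0.221, 95% interval -0.55 to 0.42, adjusted p 0.948) and -0.18 for Trp73 (SE 0.235, 95% interval -0.70 to 0.33, adjusted p 0.836), by limma. Without control 3, both values turned slightly positive, to 0.09 and 0.04. The table gives 1 value per gene, so the TA and shorter ΔN forms of Trp63 could not be separated. Trp63 is annotated at chr16:25683763-25892088 on the plus strand and Trp73 at chr4:154056249-154139875 on the minus strand. Of the Trp73 exon bases 5.06% (280 bases) overlap the antisense gene Trp73os, and the strand setting of the counting is not given in the sources used here.

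Of the inhibitors, Mdm4, which binds p53 and blocks its activation domain, gave the one member call. Its level was 453, 290 and 434 FPKM in the controls and 265, 271 and 301 FPKM with aminophylline, each resting on 30090 to 112182 reads. The control mean was 392 ± 89.3 FPKM and the aminophylline mean 279 ± 19.2 FPKM (SD, n = 3 each), a difference of -29.0%. Controls 1 and 3 were well above every aminophylline library, but control 2 lay between aminophylline libraries 2 and 3, so the groups overlapped by 1 library. The log2 fold change was -0.47 (SE 0.188, 95% interval -0.88 to -0.05), with an unadjusted p of 0.0304 and an adjusted p of 0.682 by limma. An exact two-sided permutation test of the FPKM gave p = 0.2, where 0.1 is the smallest that 3 against 3 libraries allow. With the replicate number as a block the unadjusted p was 0.0102 and the adjusted p 0.215, where 14.2% of all tested genes passed the unadjusted threshold (4.3% as lower) and 0.455% the adjusted one. A voom fit of the recovered reads on the 10340 filtered genes gave Mdm4 an unadjusted p of 0.0186 and an adjusted p of 0.653. In it 761 genes passed the unadjusted threshold. With the block these p-values were 0.00202 and 0.0996, where 1495 genes passed the unadjusted threshold and 69 the adjusted one. Voom fits without the FPKM filter were added after the data were seen, on the 22583 genes above 0 in at least 2 libraries. There the unadjusted p of Mdm4 was 0.00522 and its adjusted p 0.773, where 6.42% of those genes passed the unadjusted threshold. Only with the block and without the FPKM filter did voom put Mdm4 past the adjusted threshold (adjusted p 0.0431). There 10.2% of genes passed the unadjusted threshold and 0.478% the adjusted one.

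Whether Mdm4 was called depended on which libraries were kept, although without aminophylline 1 or 2 the fold change stayed near the -0.47 of the main test. The Mdm4 call was lost without control 1 (log2 fold change -0.35, p 0.113), without control 3 (-0.38, p 0.0820), without aminophylline 1 (-0.43, p 0.0891) and without aminophylline 2 (-0.45, p 0.0859), all by limma with unadjusted p. It was kept without aminophylline 3 (-0.52, p 0.0391). With all 6 libraries it was also lost when no filter was applied (p 0.0515) and in an unmoderated linear model (p 0.0930), at the same fold change. Without control 2, the shallowest library, it widened to -0.67 (SE 0.130, p 0.000547, adjusted p 0.0919), where 15.6% of all tested genes passed the unadjusted threshold. The direction was the same in all 19 alternatives tried, which ran from -0.67 to -0.35. They are not independent, since all drew on the same libraries. On log2(FPKM + 1), other filters, the unmoderated model and the replicate block cannot change the fold change. The spread among the controls was the wider one, with a coefficient of variation of 22.8% against 6.88% in the aminophylline group. In 6 of the 7 tested members, and in 76.4% of all tested genes, the control group varied more. Mdm4 lies at chr1:132986105-133030587 on the minus strand.

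**Figure D2:**
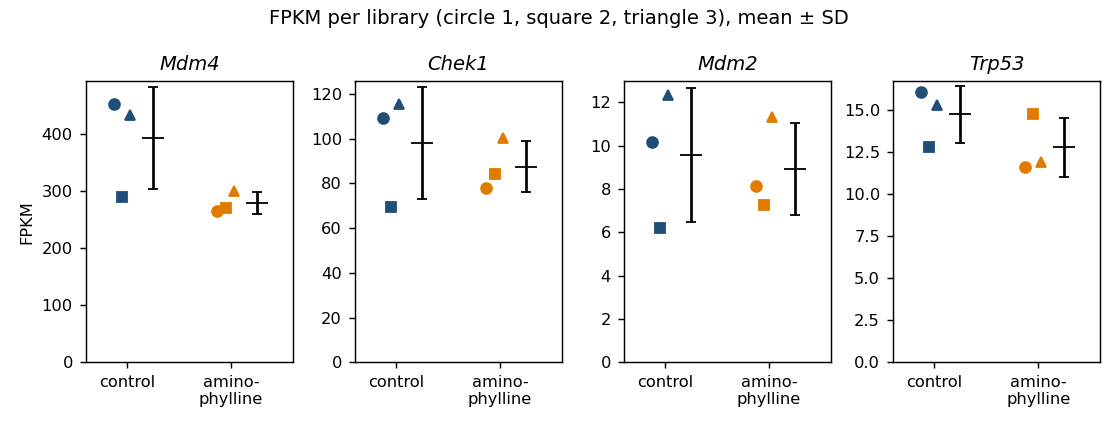
FPKM per library for the 4 members with the highest levels, on axes that start at 0, with the symbol giving the library number and a black bar for the group mean ± SD (n = 3). Control 2 (square) is the lowest control for all 4 genes, and it is the one control that overlaps the aminophylline libraries for Mdm4.

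**Figure D3:**
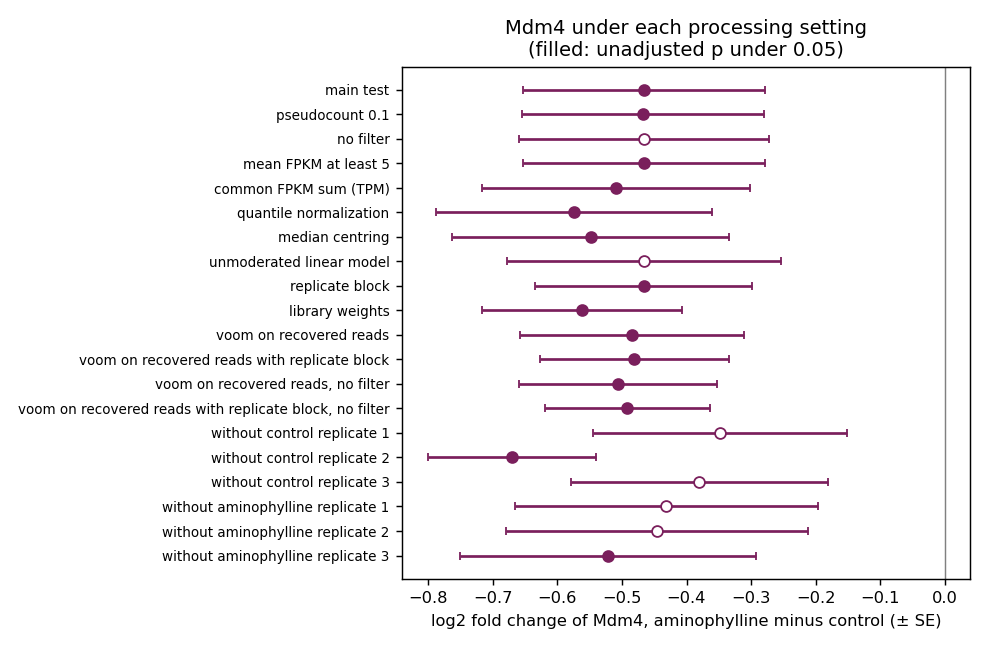
Log2 fold change of Mdm4 (aminophylline minus control, ± SE) in the main test and under 19 alternatives, filled where the unadjusted p was under 0.05. All 20 values are negative, and the open circles are the 6 alternatives in which the call was lost.

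Mdm2, the ubiquitin ligase that marks p53 for degradation and a p53 target itself, was far less abundant. It was at 10.2, 6.21 and 12.3 FPKM in the controls and 8.14, 7.26 and 11.3 FPKM with aminophylline. The means of 9.56 ± 3.09 and 8.90 ± 2.12 FPKM (SD, n = 3 each) differed by less than the spread within either group, and control 2 was the lowest library. The log2 fold change was -0.07 (SE 0.267, 95% interval -0.66 to 0.52, adjusted p 0.956 by limma). Without control 3 it was 0.12 and without aminophylline 2 it was 0.05. Mdm2 lies at chr10:117688875-117710758 on the minus strand.

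Of the kinases, Chek1, which slows division by way of the Cdc25 phosphatases, was the second most abundant member. It was at 109, 69.2 and 116 FPKM in the controls and 78.0, 84.4 and 100.2 FPKM with aminophylline. Control 2 was the lowest library of the 6 and controls 1 and 3 the highest, so that the aminophylline libraries lay entirely inside the control range. The means were 98.0 ± 25.1 and 87.5 ± 11.4 FPKM (SD, n = 3 each) and the log2 fold change was -0.13 (SE 0.210, 95% interval -0.60 to 0.33, adjusted p 0.872 by limma). Without control 2 the log2 fold change was -0.36 (unadjusted p 0.0427, adjusted p 0.301), and Chek1 then joined Mdm4 past the unadjusted threshold, whereas without control 3 it was 0.00. Chek1 lies at chr9:36708482-36726658 on the minus strand.

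Chek2, the kinase that acts on p53 and p63 after strand breaks, was near the minimum of the filter. It was at 0.589, 1.24 and 0.588 FPKM in the controls and 0.814, 0.809 and 0.714 FPKM with aminophylline. These values rest on 88, 78 and 83 reads and on 102, 89 and 97 reads. The 3 aminophylline libraries lay inside the control range, and the exact two-sided permutation test gave p = 1.0. On the recovered reads (the added voom fit without the FPKM filter), the log2 fold change was 0.13 (SE 0.388, 95% interval -0.70 to 0.96). Chek2 lies at chr5:110839800-110874140 on the plus strand.

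The ratio of Mdm4 to Chek1 within a library was looked at after these values were seen, since both genes were low in control 2. It was 4.16, 4.19 and 3.76 in the controls and 3.40, 3.21 and 3.0 with aminophylline. The means were 4.03 ± 0.241 and 3.20 ± 0.198 (SD, n = 3 each), and the groups did not overlap. Among the ratios of Mdm4 to each of 10333 tested genes, 35.7% were likewise lower with aminophylline without overlap. For the ratio of Mdm4 to Chek1 the exact permutation p of 0.1 is the smallest this design allows. Ratios of Mdm4 to the other 5 tested members were also formed, and all 5 overlapped between the groups. Among them were those to Trp53 (28.2, 22.6 and 28.4 against 22.9, 18.3 and 25.2) and to Mdm2 (44.6, 46.7 and 35.2 against 32.5, 37.3 and 26.6). After Benjamini-Hochberg adjustment over these ratios and that to Chek1, the permutation p of the ratio to Chek1 was 0.36. Over the 6 libraries, the tested genes whose log2(FPKM + 1) ran most like Mdm4 were Ywhae (Pearson r 0.998), Tmod3 (0.995) and Tfg (0.995). On the same scale those most like Chek1 were Dpy19l4 (0.997), Zfp160 (0.996) and Calr4 (0.995). These are the 3 highest r of all tested genes for each of the pair, and they describe only these 6 libraries, in which a gene's values share 1 scaling per library.

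Cdkn1a, which encodes the cyclin-dependent kinase inhibitor p21 and is the textbook target of p53, was barely detected. It was at 0.277, 0.0696 and 0.185 FPKM in the controls and 0.191, 0.734 and 0.337 FPKM with aminophylline, from 19, 2 and 12 reads and 11, 37 and 21 reads. Aminophylline 2 was the highest library and control 2 the lowest, at a count under the floor of 3 reads, and the groups overlapped. The exact two-sided permutation test gave p = 0.2, and the added voom analysis of the reads gave a log2 fold change of 0.98 with a 95% interval from -0.59 to 2.55. A difference of this size was not resolved with these few reads and 3 libraries in each group. Cdkn1a lies at chr17:29090979-29100722 on the plus strand, and 7.68% of its exon bases (273 bases) overlap an antisense gene.

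Gadd45a and Gadd45g encode small stress-induced proteins that bind Cdk1 and the sliding clamp PCNA. Gadd45a was at 1.53, 2.55 and 1.98 FPKM in the controls and 2.20, 1.71 and 2.64 FPKM with aminophylline, with means of 2.02 ± 0.510 and 2.19 ± 0.465 FPKM (SD, n = 3 each). The groups overlapped throughout, and the log2 fold change was 0.08 (SE 0.220, 95% interval -0.40 to 0.56, adjusted p 0.930 by limma). Gadd45a lies at chr6:67035096-67037407 on the minus strand, and 19.1% of its exon bases (337 bases) overlap the antisense gene E230016M11Rik, which was itself at a mean of 0.0067 FPKM.

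Gadd45g was the one member of 10 whose groups did not overlap, and it was not among the tested genes. Of the 7 tested members 0 had groups that did not overlap, where 12.5% of all tested genes did. That share does not cover genes that did not pass the filter. Gadd45g had 0, 0 and 0 reads in the controls and 1, 4 and 12 reads with aminophylline, or 0.0328, 0.149 and 0.363 FPKM. Every aminophylline library thus had at least 1 read, but aminophylline 1 was under the floor of 3 reads per library. With the controls set at that floor, the aminophylline mean was 1.49-fold higher. This is not a lower bound, since the aminophylline reads carry counting error too and most of them came from aminophylline 3. The exact two-sided permutation p was 0.1, the smallest this design allows. No fitted p is given, since without control reads Gadd45g could enter a fit only through the aminophylline libraries in which it was read. Gadd45g lies at chr13:51846675-51848475 on the plus strand.

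The wider pathway was read from 4 lists of genes set by role, which leave out the 10 members. Of their 108 genes 105 were in the table and 75 were tested. At an unadjusted p under 0.05, 1 of the 75 was lower (Cdc25c) and none was higher, against 2.84% and 4.41% of all tested genes, and none passed after adjustment. The median log2 fold change of the 75 was 0.08, beside 0.10 over all tested genes. With the replicate block 5 were higher and 2 lower at an unadjusted p under 0.05, where 9.88% of all tested genes were higher and 4.3% lower (14.2% in either direction), and none passed after adjustment.

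Damage sensors and upstream kinases, which detect breaks and stalled forks and signal to Chek1 and Chek2, had 18 of 23 listed genes tested, with a median log2 fold change of 0.20 and none past the unadjusted threshold. The most abundant were Tipin (152 and 153 FPKM in control and aminophylline means), which stabilizes replication forks, Rnf8 (23.8 and 33.4), a ubiquitin ligase at breaks, and Rhno1 (27.0 and 25.7), a partner of the 9-1-1 clamp. With the block, Rnf8 (log2 fold change 0.47, unadjusted p 0.0179, adjusted p 0.257), Clspn, the Chek1 adaptor (0.44, 0.0425, 0.329), and Timeless, the Tipin partner (0.49, 0.0272, 0.285), passed the unadjusted threshold as higher, 3 of 18 where 9.88% of all tested genes were higher. Without control 1 and without the block, the log2 fold changes were 0.41 for Rnf8, 0.31 for Clspn and 0.28 for Timeless. Rad1, a subunit of the 9-1-1 clamp, was at 8.95, 8.38 and 9.14 FPKM in the controls and 7.53, 6.23 and 6.46 FPKM with aminophylline, without overlap, but with an unadjusted p of 0.107 by limma. The apical kinases themselves were low, Atm reaching at most 0.436 FPKM and Atr 1.03 FPKM in any library.

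Regulators of p53 stability and activity had 19 of 25 genes tested, with a median of 0.17 and none past the unadjusted threshold in either fit. The most abundant were Rchy1 (150 and 153 FPKM), a p53 ubiquitin ligase, Usp2 (28.9 and 28.8), a deubiquitinase of Mdm2, and Usp7 (26.5 and 30.1), which removes ubiquitin from both p53 and Mdm2. Their log2 fold changes were 0.03, 0.01 and 0.17.

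Target genes of the p53 family had 18 of 36 listed genes tested, with a median of -0.05 and none past the unadjusted threshold in either fit. The most abundant were Ckap2 (48.9 and 41.6 FPKM), a spindle protein, Rrm2b (19.8 and 19.6), a ribonucleotide reductase subunit, and Ddb2 (18.2 and 15.4), which recognizes ultraviolet damage. The other 18 did not pass the filter, among them the proapoptotic Bbc3 (Puma) and Pmaip1 (Noxa), which reached at most 0.0202 and 0.133 FPKM in any library, and Gadd45b, the third Gadd45 gene, at most 1.89 FPKM.

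Cell-cycle effectors of the checkpoint had 20 of 21 genes tested, with a median of -0.03. Cdc25c, the phosphatase that activates Cdk1 and a substrate of the checkpoint kinases, was at 5.56, 6.11 and 7.68 FPKM in the controls and 3.51, 3.73 and 4.64 FPKM with aminophylline. Every aminophylline library was below every control, with means of 6.45 ± 1.10 and 3.96 ± 0.604 FPKM (SD, n = 3 each). The log2 fold change was -0.58 (SE 0.219), with an unadjusted p of 0.0221 and an adjusted p of 0.682 by limma (0.00920 and 0.204 with the block). The Cdc25c call was lost without control 3 (-0.47, unadjusted p 0.0633), without aminophylline 1 (-0.52, p 0.0835) and without aminophylline 2 (-0.55, p 0.0741), and kept without control 1 (-0.67, p 0.0207), by limma. Its substrate Cdk1 was at 48.9 ± 2.11 FPKM in the controls and 59.2 ± 2.58 FPKM with aminophylline (SD, n = 3 each), also without overlap and in the other direction, with a log2 fold change of 0.27 and an unadjusted p of 0.104 by limma. The most abundant effectors were the Cdk1 cyclins Ccnb1 (928 and 742 FPKM, log2 fold change -0.30, unadjusted p 0.119) and Ccnb2 (315 and 257 FPKM, -0.30, 0.0868), and the oocyte Cdk1 inhibitory kinase Wee2 (137 and 135 FPKM, 0.00). Cdkn1c, a relative of p21, was also without overlap, at 1.61 ± 0.137 and 2.58 ± 0.762 FPKM (SD, n = 3 each, unadjusted p 0.0738 by limma), which brought the genes without overlap to 4 of 75 in the lists (12.5% of all tested genes). With the block Fzr1 and Cdkn1c were higher and Cdc25c and Ccne2 lower at an unadjusted p under 0.05, 2 of 20 in each direction where 9.88% of all tested genes were higher and 4.3% lower. Ccne2, a cyclin of the Cdk2 kinase, was at 32.5 FPKM in control 1 and 16.5 and 13.7 FPKM in the other controls, against 12.4, 17.1 and 10.7 FPKM with aminophylline. Without control 1 and without the block its log2 fold change was -0.18 (unadjusted p 0.470 by limma), and those of Fzr1 and Cdkn1c were 0.28 and 0.40.

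The p53 signaling pathway as the table's KEGG annotation gives it held 9 of the 10 members, all but Trp63, and 61 further genes, 33 of which were tested. Their median log2 fold change was -0.06. Siva1, a proapoptotic p53 target, was higher with aminophylline at the unadjusted threshold, at 366 ± 66.5 and 475 ± 53.1 FPKM (SD, n = 3 each), with a log2 fold change of 0.39 (SE 0.172), an unadjusted p of 0.0472 and an adjusted p of 0.684 by limma, and with groups that overlapped. It was 1 of 33, where 4.41% of all tested genes were higher. The Siva1 call was lost without control 1 (0.34, unadjusted p 0.111), without control 3 (0.29, p 0.135), without aminophylline 1 (0.39, p 0.106) and without aminophylline 2 (0.30, p 0.180), all by limma. With all libraries it was also lost with median centring (0.30, p 0.239), with no filter (p 0.0597) and in the unmoderated model (p 0.0902). With the block 1 gene was higher (Siva1) and 3 lower at the unadjusted threshold, where 9.88% of all tested genes were higher and 4.3% lower. The 3 were Ccne2, Siah1b (log2 fold change -0.43, unadjusted p 0.0204, adjusted p 0.265) and Rrm2 (-0.40, 0.0426, 0.329). Without control 1 and without the block, the log2 fold changes were -0.31 for Siah1b and -0.44 for Rrm2.

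**Figure D4:**
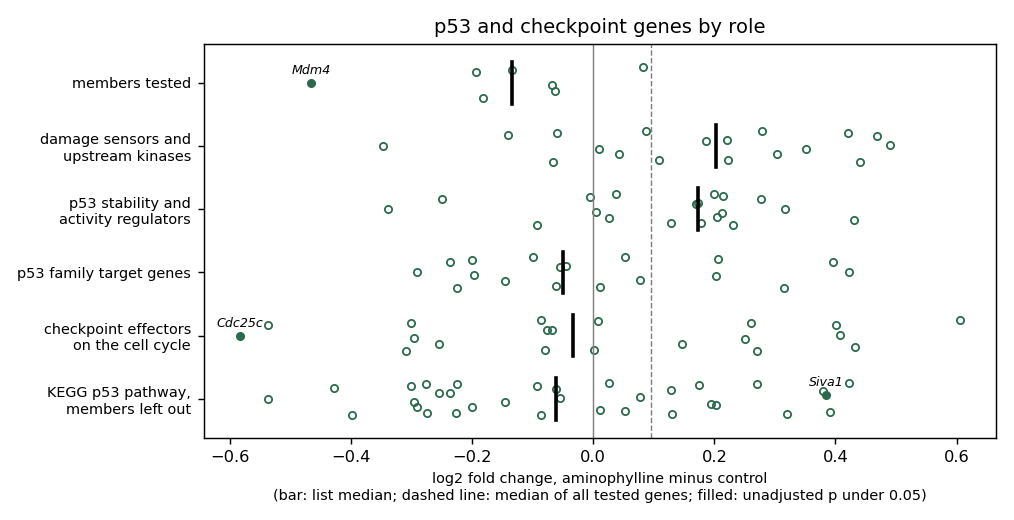
Log2 fold change (aminophylline minus control) of each tested gene, with the 7 tested members on top and the pathway lists by role below. The black bar is the median of each list, the dashed line the median of all tested genes (0.10), and the filled points, Mdm4, Cdc25c and Siva1, are those with an unadjusted p under 0.05.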

How the data were processed

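The authors deposited 1 table with an FPKM value per gene and library and no scaling between libraries beyond FPKM. The submitters' processing notes name GRCm 38 (mm 10) as the genome, and the aligner and counter are not given in the sources used here. Whole reads were recovered from the ratios of FPKM between libraries, and 100% of 22583 genes came out whole (tolerance 1e-06 reads). Groups came from the labels. The main test was limma 3.58.1 in R 4.3.3 (two-sided, variance trend) on log2(FPKM + 1), with a filter of 1 FPKM in 3 libraries and Benjamini-Hochberg adjustment. limma voom on the recovered reads was an alternative, also without the FPKM filter on the genes above 0 in at least 2 libraries. Calls use a p threshold of 0.05. The floor was 3 reads per library and covers counting error only.

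The members and lists were chosen with earlier results of these data known. The named genes were all members, list genes with an unadjusted p under 0.05 and the 3 most abundant per list, and the 3 genes most like each of the 2 most abundant members. Genes named for a lack of overlap, for a call with the replicate block, or as low apical kinases and targets were added after their values were seen. The replicate numbers 1 to 3 come from the labels, and deviations from the group means correlated over genes between same-numbered libraries at 0.138, 0.140 and 0.552, above the 0.1 set for pairing, although control 2 correlated more with aminophylline 1 (0.423). Alternatives were other pseudocounts, filters and scalings, an unmoderated model, library weights, the replicate block, voom, and leaving out each library. The test code was checked on simulated data. Loci and promoters are from RefSeq GRCm38.p6 and exon overlaps from GENCODE M21.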

Additional observations from a re-analysis of the deposited data

How the results depend on the processing

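Of the members, 1 passed the unadjusted threshold of 0.05 (Mdm4). This was 0 with no filter and with the unmoderated model, and 0 to 2 when single libraries were left out. Mdm4 also passed in each of the voom analyses without the FPKM filter, where 6.42% of genes passed (10.2% with the block). Those analyses were added after the data were seen, on genes above 0 in at least 2 libraries. Gadd45g is not counted there, since it met that condition only through its aminophylline reads. At the adjusted threshold the count of members was 0, except for 1 with voom, the replicate block and no filter (Mdm4, adjusted p 0.0431, where 0.478% of genes passed), and 0 when single libraries were left out. Over the alternatives, the adjusted p of Mdm4 ran from 0.0431 to 0.999. Trp53 kept its direction throughout, at -0.30 to -0.13.

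Among all tested genes, 750 passed the unadjusted threshold, 1404 with no filter, 1467 with the replicate block, 2011 with library weights, 1495 with voom and the block, 1449 with voom and no filter, 2310 with voom, the block and no filter, and 329 to 1617 when single libraries were left out. At the adjusted threshold none passed, against 47 with the replicate block, 69 with voom and the block and 108 with voom, the block and no filter. Of the 75 tested genes in the 4 lists 1 passed the unadjusted threshold, beside 750 of all 10340 tested genes. On the same genes 2 passed with a common FPKM sum (573 of all), 2 with quantile normalization (874), 3 with the unmoderated model (677), 7 with the replicate block (1467), 13 with library weights (2011) and 11 with voom and the block (1495). With no filter 5 of 105 passed (1404 of 25631). With voom and no filter 6 of 104 passed (1449 of 22583), and 13 of 104 with the block added (2310 of 22583). The count was 1 to 11 when single libraries were left out (329 to 1617 of all), where Cdc25c was not always among them. The pairing by replicate number changed no member's side of the unadjusted threshold in the main test. The cause of these shifts was not tested.

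Log2 fold changes that turned sign were Gadd45a at -0.0298 with quantile normalization and -0.000655 with median centring, and Trp63 at 0.0259 with library weights. When single libraries were left out, Chek1 ran from -0.363 to 0.00197, Gadd45a from -0.0391 to 0.205, Mdm2 from -0.321 to 0.121, Trp63 from -0.156 to 0.0946 and Trp73 from -0.305 to 0.0418. When single libraries were left out, Cdc25c ran from -0.681 to -0.468 and Siva1 from 0.285 to 0.528. Cdkn1a and Gadd45g rested on 0 to 37 reads per library, the fewest of the 10 members.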
